A study of Homo sapiens with 4 samples.

Results

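The genes described here encode the machinery that loads peptides onto MHC class I molecules, 9 genes in all: the heavy chains HLA-B, HLA-C and HLA-E, their light chain B2M, the peptide transporter subunits TAP1 and TAP2, the loading chaperone TAPBP (tapasin), and the immunoproteasome subunits PSMB8 and PSMB9. They were chosen by name, 9 of 20046 on the array, and all 18 of their probes were taken, of 30113 that carry 1 gene. The choice was made with earlier results of these data known. Expression was measured in H23, an established human non-small-cell lung cancer line, on Illumina HumanHT-12 v4 BeadChips with polyA RNA from cultures near confluence. The groups were 2 control samples overexpressing green fluorescent protein (GFP) and 2 samples overexpressing the SOXF transcription factor SOX7, both in the same line. The labels give neither the vector, nor the time after its introduction, nor whether the cells were a clone or a pool. Whether replicates were separate cultures is not labelled either, so p-values cover the spread between these arrays alone, and that spread may be technical.

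MHC class I molecules show peptides from inside the cell to CD8+ T cells, and HLA-E also engages receptors of natural killer cells. The proteasome cuts proteins into peptides, TAP1 and TAP2 pump these into the endoplasmic reticulum, and tapasin holds an empty heavy chain and its light chain beta-2 microglobulin close to the transporter until a peptide fits. Interferon-gamma raises most of these genes in many cell types, through factors such as IRF1 and the coactivator NLRC5, and tumours often show low levels of them.

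Each of the 4 arrays gave 48107 log2 values with a median of 6.26, and arrays of a group correlated at r = 0.995 against 0.990 between groups. No detection p-values were used, so a signal near the median was not separated from background. Precision is limited by the number of arrays. The SOX7 probe read 6.18 and 6.45 in the control arrays and 6.53 and 6.78 in the SOX7 arrays, 0.34 higher on average but short of the threshold (limma adjusted p = 0.0621). It passed without control replicate 2 (0.48, adjusted p = 0.0167) and with the replicate block (adjusted p = 0.0104). It was 0.21 without control replicate 1 (adjusted p = 0.321) and without SOX7 replicate 2 (adjusted p = 0.370). A second SOX7 probe differed by 0.0039, and the mean of both by 0.17 (adjusted p = 0.233). Because it is not known here whether these probes cover the overexpressed transcript, they test neither label. Of 9 epithelial markers, 4 lay above the median of all probes (KRT18, KRT8, EPCAM and KRT7), KRT18 higher in SOX7 cells by 0.45 (limma adjusted p = 0.00514), while NKX2-1, NAPSA, SFTPB, CDH1 and KRT19 lay below the filter described next. Of 12 leukocyte markers on the array, 4 lay above the filter (CD14, LYZ, MS4A1 and ITGAM), and the pan-leukocyte marker PTPRC read 5.93 to 6.23, below the median of all probes. CD14 rose by 0.64 (limma adjusted p = 5.20e-04), and the mean of the 12 leukocyte markers was 6.48 to 6.54 in the control arrays and 6.53 to 6.57 in the SOX7 arrays. Of 6 fibroblast markers 4 lay above the filter, LUM rising by 0.52 (limma adjusted p = 0.00174), and their mean was 6.27 to 6.37 in the control arrays and 6.25 to 6.27 in the SOX7 arrays. Of 5 endothelial markers 0 did. The part of these markers in the class I values was not tested.

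Class I genes moved in both directions in SOX7 cells. TAP1 rose 1.61-fold and the brightest TAPBP probe fell 1.53-fold, and these were the calls that held without each array in turn. Probes of HLA-B, B2M, PSMB8 and PSMB9 rose by 1.27-fold to 1.32-fold, HLA-E fell 1.22-fold, and HLA-C and TAP2 had no probe past the threshold. In RNA from whole cultures, fewer cells expressing a gene and less RNA per cell cannot be told apart. A probe was tested where its mean over the 4 arrays reached the median of all probe means (6.25), which 16 of the 18 did, each of them in both groups. The other 2, HLA-C probe 2 and PSMB8 probe 3, were not tested. With limma and Benjamini-Hochberg adjustment over all 17100 probes tested, 5 of the 16 rose and 2 fell at an adjusted p of 0.05, where 8.12% and 8.94% of all probes did, and 17.1% in either direction. Control and SOX7 arrays did not overlap for 12 of the 16, as was the case for 57.6% of all probes. The median log2 fold change of the 16 was 0.10, against 0.0020 over all probes tested. Because the genes were chosen with earlier results of these data known, these shares and medians are descriptive only. The counts of 5 and 2 depended on single arrays: 3 rose and 1 fell without control replicate 1 or without control replicate 2, 2 and 1 without SOX7 replicate 1, and 1 and 1 without SOX7 replicate 2. Probes are numbered within a gene in the order of their Illumina identifiers, and log2 fold changes are SOX7 minus control.

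**Figure D1:**
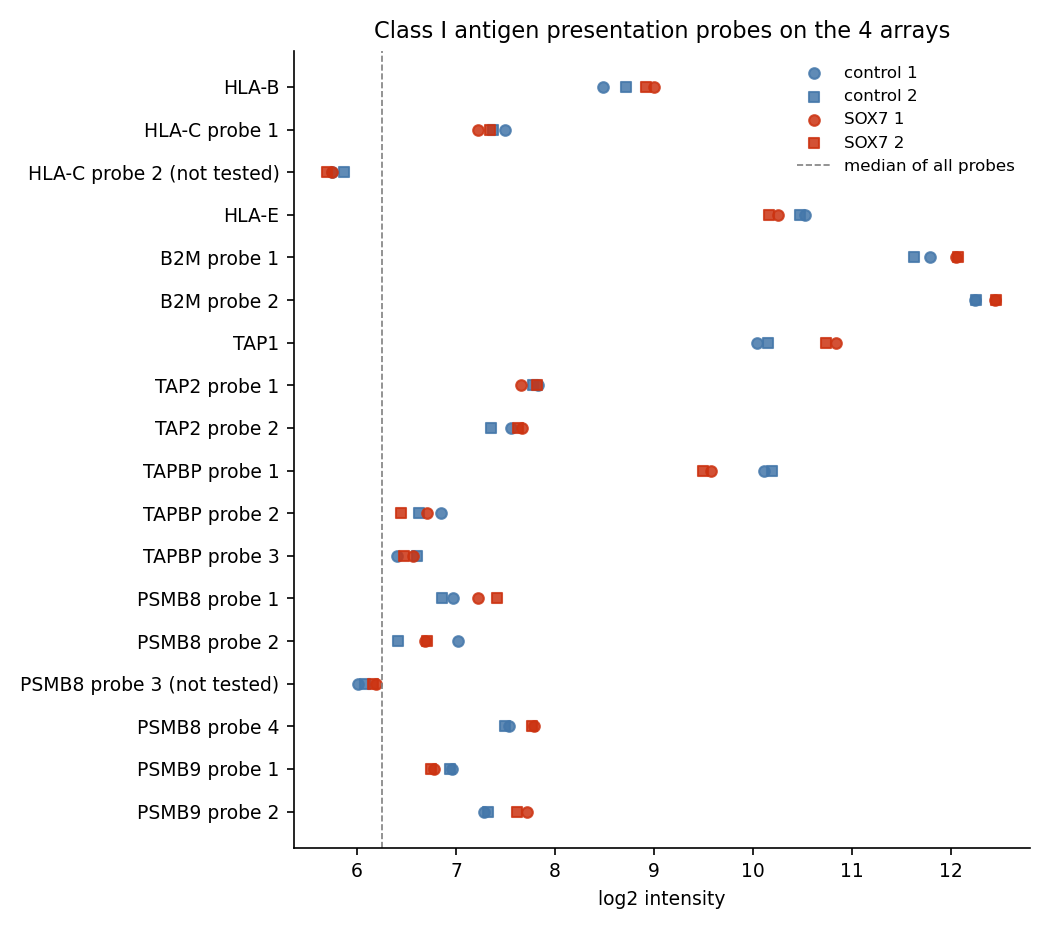
Log2 intensity of each of the 18 probes (rows) on the 2 control arrays (blue) and 2 SOX7 arrays (red), with the median of all probe means (6.25) as a dashed line. TAP1 separates to the right and TAPBP probe 1 to the left in SOX7 cells, while HLA-C probe 2 and PSMB8 probe 3 lie left of the median.

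**Figure D2:**
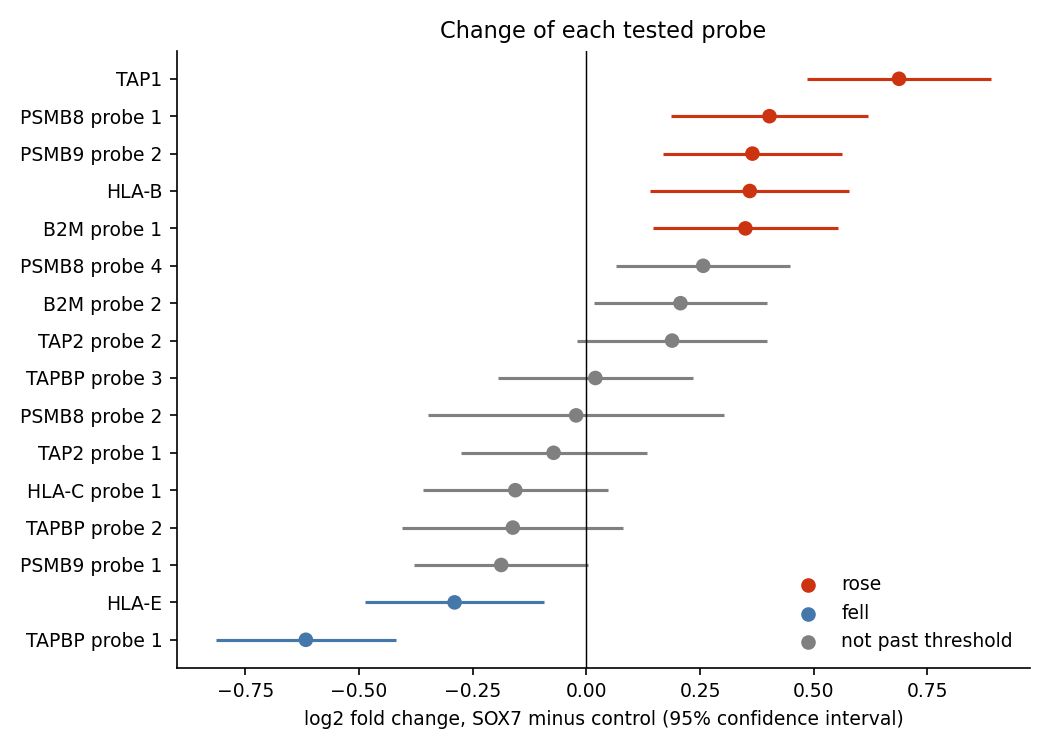
Log2 fold change of the 16 tested probes, SOX7 minus control, with 95% confidence intervals from limma; red points rose, blue points fell and grey points did not pass the threshold. The values run from −0.62 for TAPBP probe 1 to 0.69 for TAP1.

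The reference sequence before the starts of 6 of these genes is given because they include the largest rise and the largest fall and a pair of heavy chains that read differently. Each line holds the 250 bases before a start in RefSeq (GRCh38.p14), 5′ to 3′ on the gene's strand, and capitals mark matches to the motifs named below. TAP1 (chr6:32853705-32853954), PSMB9 (chr6:32853942-32854191), TAPBP (chr6:33314079-33314328), HLA-B (chr6:31357180-31357429) and HLA-C (chr6:31272093-31272342) lie on chromosome 6, PSMB9 and B2M on the plus strand and the others on the minus strand, and B2M (chr15:44711267-44711516) lies on chromosome 15.
TAP1: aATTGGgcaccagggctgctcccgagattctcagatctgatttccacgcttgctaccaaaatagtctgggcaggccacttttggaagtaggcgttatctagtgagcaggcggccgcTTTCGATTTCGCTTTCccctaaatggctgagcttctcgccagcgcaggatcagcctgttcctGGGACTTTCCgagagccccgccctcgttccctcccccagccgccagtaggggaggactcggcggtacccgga
PSMB9: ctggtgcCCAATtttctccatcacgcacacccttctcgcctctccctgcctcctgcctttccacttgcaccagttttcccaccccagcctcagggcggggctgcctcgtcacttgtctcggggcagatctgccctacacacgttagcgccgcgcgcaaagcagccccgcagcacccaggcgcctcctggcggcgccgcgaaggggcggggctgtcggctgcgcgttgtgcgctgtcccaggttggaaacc
TAPBP: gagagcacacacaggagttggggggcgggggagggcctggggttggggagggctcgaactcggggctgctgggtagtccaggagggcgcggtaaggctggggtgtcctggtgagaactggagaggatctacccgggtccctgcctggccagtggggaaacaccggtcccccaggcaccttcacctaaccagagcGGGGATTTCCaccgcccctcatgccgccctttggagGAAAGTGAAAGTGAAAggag
HLA-B: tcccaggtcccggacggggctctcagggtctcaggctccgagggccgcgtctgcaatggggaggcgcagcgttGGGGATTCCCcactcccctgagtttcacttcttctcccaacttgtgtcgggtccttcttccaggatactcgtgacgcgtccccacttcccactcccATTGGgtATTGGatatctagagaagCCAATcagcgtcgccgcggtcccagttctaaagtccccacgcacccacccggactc
HLA-C: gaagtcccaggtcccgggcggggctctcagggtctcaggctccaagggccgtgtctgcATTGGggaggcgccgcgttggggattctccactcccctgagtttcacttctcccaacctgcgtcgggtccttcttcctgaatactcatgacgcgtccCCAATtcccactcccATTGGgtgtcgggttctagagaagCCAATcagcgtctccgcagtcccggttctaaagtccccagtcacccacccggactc
B2M: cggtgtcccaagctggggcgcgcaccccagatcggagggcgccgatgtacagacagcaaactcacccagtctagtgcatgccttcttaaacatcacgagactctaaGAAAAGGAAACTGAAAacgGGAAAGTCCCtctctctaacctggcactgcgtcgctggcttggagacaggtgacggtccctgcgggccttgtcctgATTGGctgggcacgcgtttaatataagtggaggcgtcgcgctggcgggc
Of the 9 genes, 8 had promoter windows in the RefSeq reference. HLA-E had none, so the motif counts leave it out. The motifs were searched on both strands of the 250 bases, and a match is a description of letters, not a binding site. The core of the interferon-stimulated response element, GAAA and GAAA with any 2 bases between them, was found before 4 of 8 genes. These were B2M, TAP1, TAP2 and TAPBP. By window this was 4 of 10, against 3.02% of all 35116 promoter windows. Near matches were not counted, so its absence before the other genes, HLA-B and HLA-C among them, holds for these exact letters only. Before B2M, TAP1 and TAPBP there are 2 matches that overlap each other, and the matches before TAP1 are on its opposite strand. TAP1 and PSMB8 have 2 windows each, and the TAP1 matches all lie in the one printed. An NF-kB core, GGG, any 2 bases, TT, any 1 base and CC, was found before B2M, HLA-B, TAP1 and TAPBP. By window this was 4 of 10, against 5.07% of all windows. The pentamer CCAAT was found before B2M, HLA-B, HLA-C, PSMB9 and TAP1 (5 of 10 windows, against 32% of all windows). For TAP1 and PSMB9 it is the same stretch read from opposite strands. AACAAT, a form of the core bound by SOX proteins, was found before 0 of the 8 genes, against 8.98% of windows. Other forms were not searched, so this count does not show that SOX sites are absent. B2M, TAP1 and TAPBP each hold the interferon-stimulated response element core and the NF-kB core. TAP1 and PSMB9 start 488 bases apart and are read away from each other. HLA-B and HLA-C share 226 of 246 aligned bases (91.9%), and the NF-kB core matched in HLA-B only. Whether any of these motifs bears on the changes was not tested.

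Among the heavy chains, HLA-B, a classical class I molecule, was higher and HLA-E, a non-classical one, was lower in SOX7 cells. The HLA-B probe read 8.48 and 8.71 in the control arrays and 9.001 and 8.91 in the SOX7 arrays. Both SOX7 arrays lay above both controls, by 1.28-fold on average (log2 fold change 0.36, SE 0.10, limma adjusted p = 0.0280). The difference no longer passed without control replicate 1 (0.25, adjusted p = 0.197), SOX7 replicate 1 (0.32, adjusted p = 0.162) or SOX7 replicate 2 (0.40, adjusted p = 0.0970). The HLA-E probe read 10.53 and 10.47 in the control arrays and 10.25 and 10.16 in the SOX7 arrays. HLA-E fell 1.22-fold (log2 fold change −0.29, SE 0.090, limma adjusted p = 0.0446), the weakest of the 7 calls, and did not pass when any 1 of the 4 arrays was left out (adjusted p = 0.167 without control replicate 1, 0.0876 without control replicate 2, 0.0931 without SOX7 replicate 1 and 0.208 without SOX7 replicate 2). HLA-C, the third heavy chain and a main ligand of killer cell immunoglobulin-like receptors, read 7.50 and 7.38 in the control arrays and 7.22 and 7.34 in the SOX7 arrays at probe 1. Both SOX7 arrays were lower, but the difference of −0.16 did not pass (95% confidence interval −0.36 to 0.048, limma adjusted p = 0.290). HLA-C probe 2 read 5.70 to 5.87, below the median of all probes. Class I heavy chains are polymorphic and alike in sequence, so a probe may also bind transcripts of related genes or miss an allele of this line, which was not tested.

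B2M, the light chain that every one of these heavy chains needs to reach the cell surface, was higher at both of its probes. Probe 1 read 11.79 and 11.62 in the control arrays and 12.04 and 12.07 in the SOX7 arrays, a rise of 1.27-fold (log2 fold change 0.35, SE 0.094, limma adjusted p = 0.0228). Probe 2 read 12.24 on both control arrays and 12.44 and 12.45 in the SOX7 arrays. The groups were apart at each probe, but the difference of 0.21 at probe 2 did not pass (95% confidence interval 0.017 to 0.40, limma adjusted p = 0.130). The 2 intervals overlap, that of probe 1 running from 0.15 to 0.55. The mean of both probes passed, at 0.28 (limma adjusted p = 0.0290, over genes). Probe 1 did not pass without control replicate 2 (0.27, adjusted p = 0.148), SOX7 replicate 1 (0.36, adjusted p = 0.0953) or SOX7 replicate 2 (0.34, adjusted p = 0.124).

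TAP1, the transporter subunit, gave the largest rise among these probes. It read 10.04 and 10.15 in the control arrays and 10.83 and 10.73 in the SOX7 arrays. Both SOX7 arrays lay above both controls, and the group means were 10.09 ± 0.083 and 10.78 ± 0.072 (SD, n = 2). The log2 fold change was 0.69 with an SE of 0.093 (limma adjusted p = 3.26e-04). Only 2.47% of all probes tested had a larger absolute change. Without 1 array the change ran from 0.63 to 0.75 and passed each time, with adjusted p-values of 2.60e-04 to 0.0125. TAP2, its partner in the transporter, did not follow at either probe. TAP2 probe 1 read 7.83 and 7.78 in the control arrays and 7.65 and 7.82 in the SOX7 arrays, so that the groups overlapped (log2 fold change −0.072, 95% confidence interval −0.28 to 0.13, limma adjusted p = 0.660). TAP2 probe 2 read 7.56 and 7.36 in the control arrays and 7.66 and 7.63 in the SOX7 arrays, with the SOX7 arrays higher by 0.19, below the threshold (95% confidence interval −0.021 to 0.40, limma adjusted p = 0.212). The upper bounds of both TAP2 intervals lie below the lower bound for TAP1 (0.49). The difference between the 2 genes was itself not tested.

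TAPBP, which bridges the transporter to empty class I molecules, fell at its brightest probe. Probe 1 read 10.10 and 10.19 in the control arrays and 9.57 and 9.49 in the SOX7 arrays. Both SOX7 arrays lay below both controls, and the group means were 10.15 ± 0.063 and 9.53 ± 0.060 (SD, n = 2). The log2 fold change was −0.62 with an SE of 0.091 (limma adjusted p = 6.15e-04). The change without 1 array ran from −0.66 to −0.57 and passed each time, with adjusted p-values of 2.54e-04 to 0.0194. The other 2 TAPBP probes, designed on other transcript records, lay near the median and did not pass: probe 2 differed by −0.16 (95% confidence interval −0.40 to 0.082) and probe 3 by 0.020 (95% confidence interval −0.19 to 0.23). On all 4 arrays these read 6.44 to 6.85 and 6.40 to 6.61, and the groups overlapped at both. For the mean of the 3 probes the change was −0.25, short of the threshold (limma adjusted p = 0.0539, over genes).

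**Figure D3:**
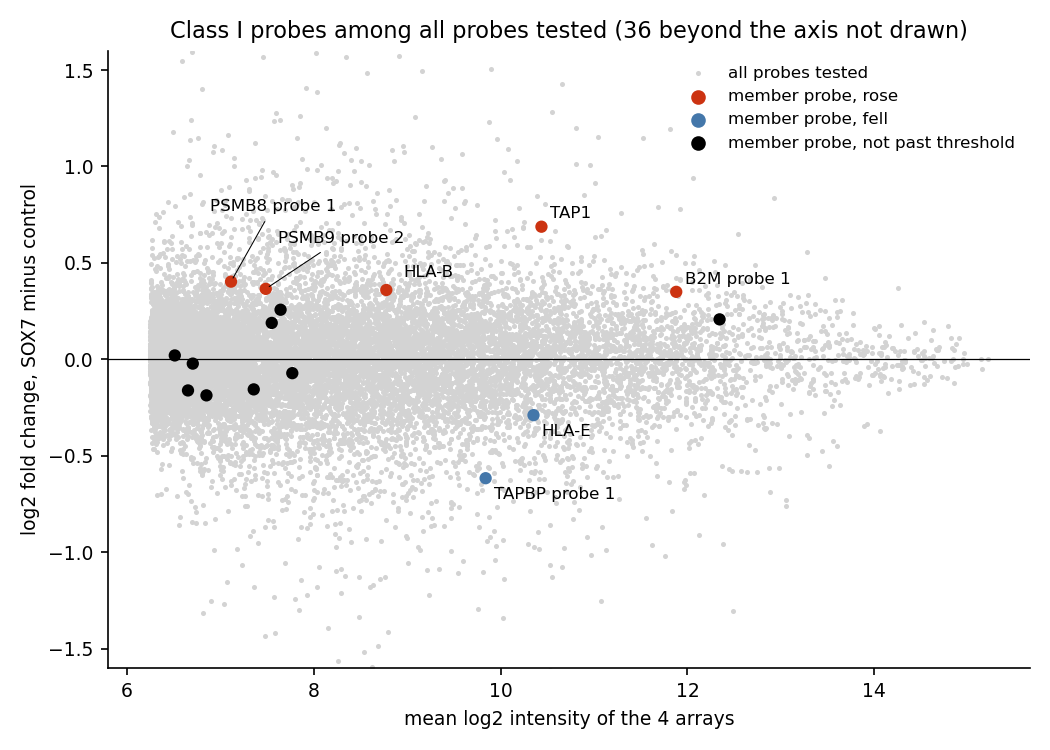
Log2 fold change against the mean log2 intensity of the 4 arrays for all 17100 probes tested (grey, 36 beyond ±1.6 not drawn) and for the 16 class I probes (red rose, blue fell, black did not pass). TAP1 (0.69) and TAPBP probe 1 (−0.62) lie outside the dense centre of the points.

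PSMB8 and PSMB9 replace constitutive catalytic subunits in the immunoproteasome, and probes of the same gene read differently. PSMB8 probe 1 read 6.97 and 6.85 in the control arrays and 7.22 and 7.42 in the SOX7 arrays, a rise of 1.32-fold (log2 fold change 0.40, SE 0.099, limma adjusted p = 0.0152). PSMB8 probe 4 read 7.54 and 7.49 in the control arrays and 7.79 and 7.76 in the SOX7 arrays, with the SOX7 arrays higher by 0.26, below the threshold (95% confidence interval 0.066 to 0.45, limma adjusted p = 0.0656). At these probes both SOX7 arrays lay above both controls. At PSMB8 probe 2 control replicate 1 read 7.02 and control replicate 2 read 6.42, with the SOX7 arrays between them at 6.69 and 6.70 (log2 fold change −0.022, SE 0.15). PSMB8 probe 3 read 6.01 and 6.08 in the control and 6.19 and 6.16 in the SOX7 arrays, below the median of all probes. The call of probe 1 ended without control replicate 2 (0.34, adjusted p = 0.0770) and without SOX7 replicate 2 (0.30, adjusted p = 0.144).

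For PSMB9, whose start faces that of TAP1, the 2 probes carry the same transcript record and moved apart. Probe 2 read 7.29 and 7.32 in the control arrays and 7.72 and 7.62 in the SOX7 arrays, a rise of 1.29-fold (log2 fold change 0.37, SE 0.090, limma adjusted p = 0.0153). Probe 1 read 6.95 and 6.94 in the control arrays and 6.77 and 6.74 in the SOX7 arrays, so both SOX7 arrays were lower, by −0.19 (95% confidence interval −0.38 to 0.0038, limma adjusted p = 0.172). The interval of probe 2, 0.17 to 0.56, does not meet that of probe 1, although the difference between the probes was not tested. For their mean the change was 0.089 (limma adjusted p = 0.451, over genes). The call of probe 2 was lost without control replicate 1 (0.35, adjusted p = 0.0556), SOX7 replicate 1 (0.32, adjusted p = 0.107) and SOX7 replicate 2 (0.42, adjusted p = 0.0532).

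**Figure D4:**
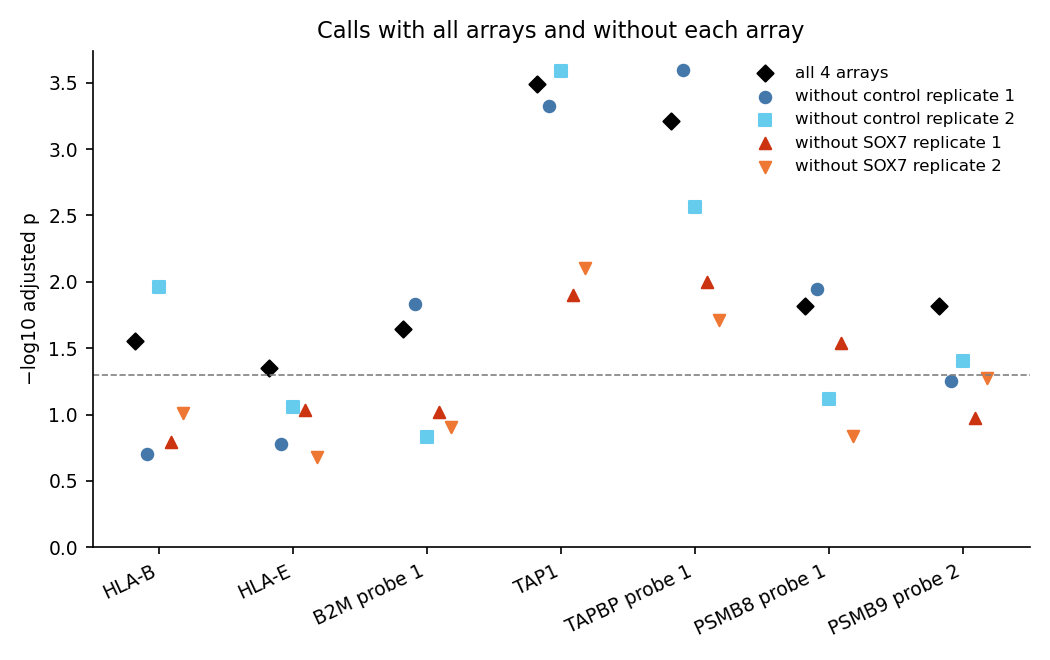
Adjusted p of the 7 called probes on a −log10 axis, with all 4 arrays and without each array in turn; the dashed line is the threshold of 0.05. Every marker of TAP1 and TAPBP probe 1 lies above the line, and each of the other 5 probes has at least 2 markers below it.

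Related genes are read at the brightest probe of each, where 3 of the 9 class I genes rose and 2 fell against 8.58% and 9.41% of 12804 genes, 18% in either direction. Their median change was 0.21, against 0.0035 over all genes tested. The related lists, too, were chosen with earlier results of these data known. Of the other heavy chains, 0 of 3 tested members rose and 0 fell: HLA-F differed by −0.038 (limma adjusted p = 0.819; second probe 0.31, adjusted p = 0.0578) and HLA-G by −0.088 (limma adjusted p = 0.585). Of the loading and trimming genes, 0 of 10 tested members passed. TAPBPL, a tapasin relative that edits peptides, came nearest, at −0.24 (limma adjusted p = 0.0796), reading 7.90 and 7.85 in the control arrays and 7.65 and 7.61 in the SOX7 arrays. TAPBPL passed with the filter at the 75th percentile (adjusted p = 0.0335) and in the fit to means of a gene's probes (adjusted p = 0.0461). In that last fit its change was the same −0.24, with an SE of 0.074 against 0.088, so no further probe was averaged in. The lectin chaperone CANX differed by 0.19 (limma adjusted p = 0.245) and the trimming peptidase ERAP1 by 0.11 (limma adjusted p = 0.448). Of the cytosolic peptidases 0 of 8 passed, with IDE at 0.15 and THOP1 at −0.11. Class II genes gave 0 of 5 tested members past the threshold, HLA-DMB at 0.17 and IFI30 at −0.16.

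PSMB10, the third inducible catalytic subunit, read 11.85 and 11.98 in the control arrays and 11.79 and 11.96 in the SOX7 arrays (log2 fold change −0.043, 95% confidence interval −0.26 to 0.17, limma adjusted p = 0.809). Its difference from PSMB8 and PSMB9 was not tested. Of the constitutive subunits, 0 of 3 passed, with PSMB7 at 0.21, PSMB6 at 0.078 and PSMB5 at 0.067. Among the immunoproteasome and activator genes, 2 of 6 tested members rose and 0 fell (33.3% called, against 18% of all genes). Their median was 0.042. PSME4, the activator PA200, rose by 0.50 (SE 0.093, limma adjusted p = 0.00282), and POMP, a proteasome assembly factor, by 0.28 (limma adjusted p = 0.0466). Leaving out any 1 of the 4 arrays ended the POMP call (adjusted p of 0.133 without control replicate 1 or control replicate 2, 0.144 without SOX7 replicate 1 and 0.154 without SOX7 replicate 2). For the mean of a gene's probes POMP was at 0.20 (adjusted p = 0.0971). Neither PSME4 nor POMP is specific to the immunoproteasome.

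Some molecules that resemble class I rose as well. Of 8 tested class I-like genes, 3 rose and 0 fell (37.5% called, against 18% of all genes), with a median of 0.049. MICB, a stress-induced ligand of the activating receptor NKG2D, read 9.60 and 9.56 in the control arrays and 10.32 and 10.28 in the SOX7 arrays, a rise of 1.65-fold (log2 fold change 0.72, SE 0.088, limma adjusted p = 1.47e-04). ULBP1, another NKG2D ligand, rose by 0.49 (limma adjusted p = 0.00526) and the protein C receptor PROCR by 0.44 (limma adjusted p = 0.00764). Both were called with all arrays but not without SOX7 replicate 2 (ULBP1 0.38, adjusted p = 0.0766; PROCR 0.36, adjusted p = 0.0917). Of the checkpoint and inhibitory ligands, 1 of 4 tested members rose (25% called, against 18% of all genes). This was NECTIN2, at 0.37 (limma adjusted p = 0.0316). Its other tested probe differed by 0.19 (limma adjusted p = 0.208). For the mean of all NECTIN2 probes, those below the filter included, the change was 0.16 (limma adjusted p = 0.224, over genes). The NECTIN2 call ended without control replicate 2 (0.24, adjusted p = 0.219), SOX7 replicate 1 (0.44, adjusted p = 0.0800) and SOX7 replicate 2 (0.30, adjusted p = 0.215).

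Among the factors that act on class I promoters, 1 of 13 tested members rose and 0 fell, with a median of 0.081. Called members made up 7.69%, against 18% of all genes. IRF1, which binds interferon response elements, read 9.80 and 9.78 in the control arrays and 10.22 and 10.07 in the SOX7 arrays, a rise of 1.28-fold (log2 fold change 0.35, SE 0.093, limma adjusted p = 0.0216). It did not pass without control replicate 2 (0.34, adjusted p = 0.0735) or SOX7 replicate 1 (0.27, adjusted p = 0.148). NLRC5, the class I coactivator, read 5.93 to 6.12 and was not tested. NFKB1 differed by 0.23 (limma adjusted p = 0.119), RELA by −0.051 (limma adjusted p = 0.762) and RFX5 by −0.18 (limma adjusted p = 0.195; second probe 0.15). Of the genes tied to repression or turnover of class I, 1 of 13 tested members rose (7.69% called, against 18% of all genes). This was MARCHF4, a ubiquitin ligase known to act on class I molecules, at 0.51 (limma adjusted p = 0.00179). Its mean lay below the 75th percentile of all probe means (7.15).

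Interferon receptor and signalling genes gave 1 of 15 tested members higher and 4 lower (33.3% called, against 18% of all genes). Their median was −0.15. The type III receptor chain IFNLR1 rose by 0.45 (limma adjusted p = 0.00431), and its second probe rose by 0.32 (limma adjusted p = 0.0280). The brightest probes of IFNLR1 and of SOCS3, given next, had means below the 75th percentile of all probe means (7.15). IFNAR1 (−0.43), the feedback inhibitor SOCS3 (−0.40; second probe −0.0055, mean of both −0.20 with adjusted p = 0.0816), the kinase JAK1 (−0.39) and IRF9 (−0.38) fell, with limma adjusted p-values of 0.00787 to 0.0191. Without SOX7 replicate 2 the calls of IFNLR1 (0.41, adjusted p = 0.0561), SOCS3 (adjusted p = 0.0548), IRF9 (adjusted p = 0.0755) and IFNAR1 (−0.38, adjusted p = 0.137) were lost. Without SOX7 replicate 1 those of SOCS3 (adjusted p = 0.0561), IRF9 (adjusted p = 0.0584), IFNAR1 (−0.48, adjusted p = 0.0685) and JAK1 (−0.30, adjusted p = 0.153) were lost. Without control replicate 1 those of IFNAR1 (−0.29, adjusted p = 0.121) and JAK1 (−0.31, adjusted p = 0.0985) were lost.

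Of 28 interferon-stimulated genes tested, 3 rose and 4 fell (25% called, against 18% of all genes), with a median of −0.040. IFIT2, an RNA-binding antiviral protein, rose by 0.77 (SE 0.11, limma adjusted p = 4.15e-04), from 6.96 and 6.98 to 7.89 and 7.58. The ubiquitin-like modifier ISG15 rose by 0.38 (limma adjusted p = 0.0148), and IFIT1, named after its values were seen, by 0.36 (limma adjusted p = 0.0304). A second IFIT1 probe differed by 0.065 (limma adjusted p = 0.804), and for the mean of both the change was 0.21 (limma adjusted p = 0.0989, over genes). The transmembrane restriction factor IFITM3 fell by 0.59 and IFITM2 by 0.55 on the log2 scale. The guanylate-binding protein GBP2 fell by 0.49 and IRF9 by 0.38 (limma adjusted p-values of 8.50e-04 to 0.0111 for these 4). The mean of GBP2 lay below the 75th percentile of all probe means (7.15). Calls lost without 1 array were those of ISG15 (adjusted p = 0.0503 without control replicate 2 and 0.121 without SOX7 replicate 1), IFIT1 (adjusted p = 0.103 and 0.217 without the same arrays) and IRF9 (adjusted p = 0.0584 without SOX7 replicate 1 and 0.0755 without SOX7 replicate 2).

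**Figure D5:**
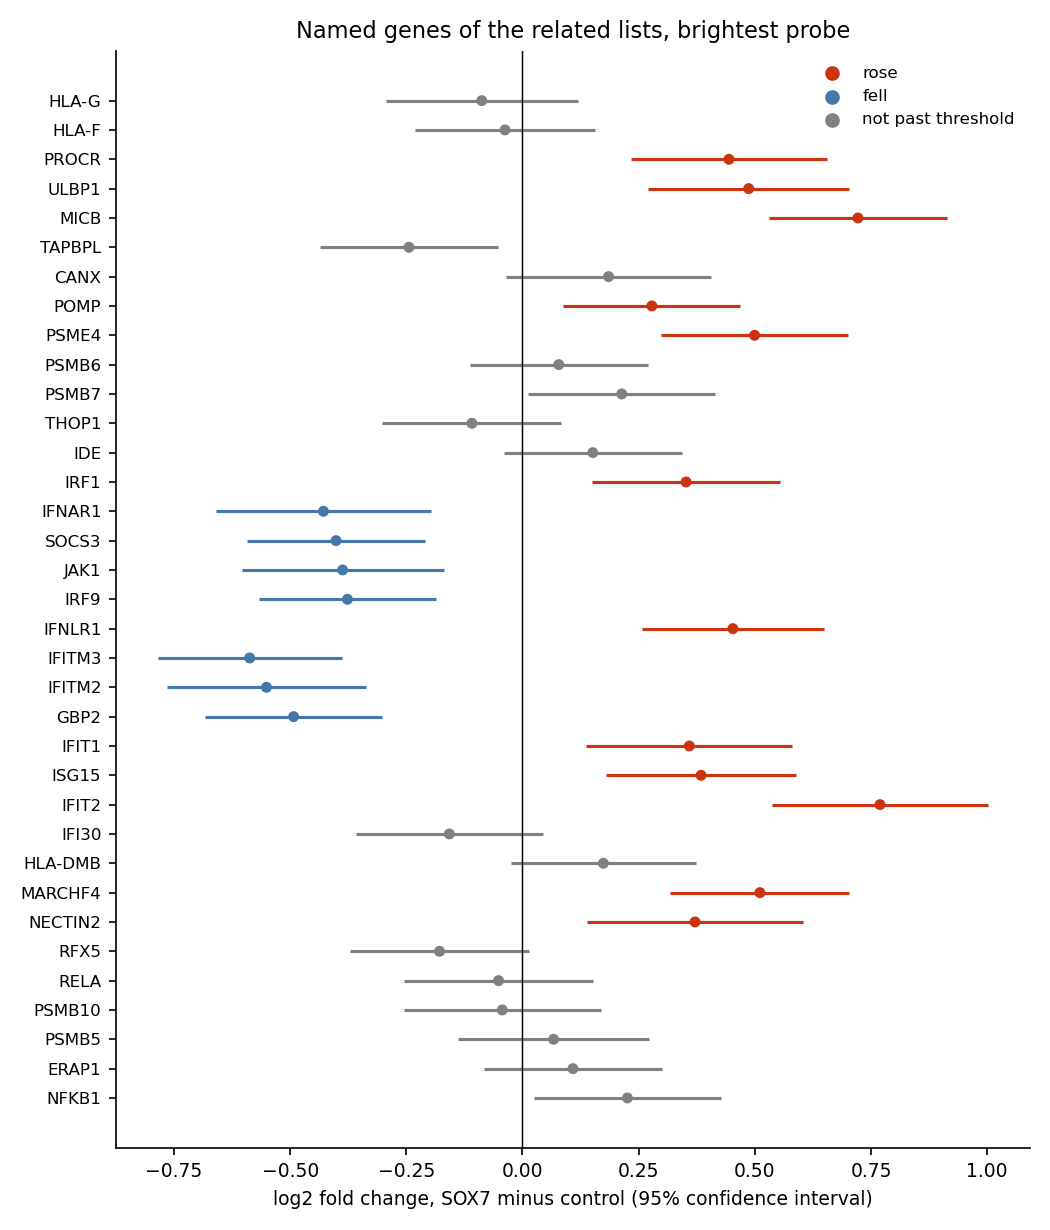
Log2 fold change, SOX7 minus control, with 95% confidence intervals for named related genes at their brightest probe, grouped by list and without the list of the chromosome 6 region; red rose, blue fell, grey did not pass. IFIT2 (0.77) and MICB (0.72) lie furthest right and IFITM3 (−0.59) furthest left.

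Apart from B2M, the class I genes lie in or beside the major histocompatibility complex on chromosome 6, where TAP2, PSMB8, TAP1 and PSMB9 neighbour each other. Of 100 other genes tested whose annotated starts lie from HLA-F to TAPBP, 4 rose and 7 fell (11% called, against 18% of all genes), with a median of −0.035. MICB (0.72), FLOT1, a membrane raft protein (0.49), and, named after their values were seen, TNXA (0.34) and HCP5 (0.31) rose. The means of TNXA and HCP5 lay below the 75th percentile of all probe means (7.15). HSD17B8, a mitochondrial fatty acid synthesis enzyme (−0.82), the sialidase NEU1 (−0.49), the stress sensor ATF6B (−0.44) and DDAH2 (−0.42) fell. The median change of the tested genes nearest to each class I gene was −0.048 to −0.025 on chromosome 6 and 0.018 around B2M. With this removed (neighbour-centred), 6 class I probes rose and 1 fell: PSMB8 probe 4 passed (0.29, limma adjusted p = 0.0433) and HLA-E did not (−0.26, limma adjusted p = 0.0744). For the mean of ATF6B's probes the change was −0.21 (limma adjusted p = 0.0761, over genes), and its other 2 probes differed by −0.049 and −0.14 without passing. Calls lost without 1 array were those of HSD17B8 (−0.56, adjusted p = 0.0592 without SOX7 replicate 2), DDAH2 (−0.30, adjusted p = 0.118 without control replicate 2, and −0.34, adjusted p = 0.160 without SOX7 replicate 2) and TNXA (adjusted p = 0.0817 without control replicate 2, 0.127 without SOX7 replicate 1 and 0.0648 without SOX7 replicate 2). HCP5 lost its call without each of the 4 arrays (adjusted p = 0.0988 and 0.0936 without control replicates 1 and 2, 0.163 and 0.0839 without SOX7 replicates 1 and 2).

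The genes whose values over the 4 arrays ran closest to TAP1, by Euclidean distance after each gene's mean was subtracted, were PLSCR1 (distance 0.031, log2 fold change 0.71), SMPDL3B (0.031, log2 fold change 0.66) and ALCAM (0.035, log2 fold change 0.68). Closest to B2M at its brighter probe 2 were CSNK2A2 (distance 0.0095), WDR46 (0.013) and FOSL1 (0.016), with log2 fold changes of 0.20 to 0.22 that, like that probe, were short of the threshold (limma adjusted p-values of 0.113 to 0.145). With 4 arrays such closeness describes these values only.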

How the data were processed

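PolyA RNA of 2 control and 2 SOX7 H23 samples was hybridised to Illumina HumanHT-12 v4 BeadChips, per the labels. The deposited table holds log2 intensities. Ranked values of any pair of arrays lay within 0.000683 of each other, as quantile normalization by the authors would leave them; for software or background steps the sources used here name nothing. Samples were grouped by title. Of 48107 probes, 30113 carried 1 gene in the platform's annotation, 8 several and 17986 none; 30074 matched a RefSeq gene identifier (GRCh38.p14).

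Every probe that carries 1 gene and whose mean reached the median of all probe means was fitted with limma 3.58.1 (R 4.3.3, statmod 1.5.0). Tests were two-sided on 12.2 moderated degrees of freedom, 2 of them residual. P-values were adjusted by Benjamini-Hochberg over 17100 probes, with a threshold of 0.05. Gene lists were read at each gene's brightest probe in that fit, over 12804 genes. Up to 6 called members of a list with the smallest p were named, otherwise 2, beside a few regulators and IFIT1, TNXA and HCP5, which complete small counts. The members and lists were chosen with earlier results of these data known. Samples of equal number were not paired: their deviations from group means correlated at −0.0171 across probes. All samples used were H23; the lines H1299 and PC14, named in the design text, were not analysed here. Alternatives were other filters, an offset of 16, probe summaries, a trended robust prior, a replicate block, scaling, neighbour-centring and leaving out each array.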

Additional observations from a re-analysis of the deposited data

How the results depend on the processing

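TAP1 kept its call under every alternative run, and TAPBP probe 1 under all but the mean of a gene's probes (−0.25, adjusted p = 0.0539). Of 796 recomputed values of 59 named probes and genes, 704 kept direction and side of the threshold, 68 fell below it, 10 passed it and 14 changed sign. The class I probes that rose numbered 5 and those that fell 2; without an intensity filter, which tests more probes, these were 3 and 1, with HLA-B (adjusted p = 0.0662), HLA-E (0.109) and B2M probe 1 (0.0580) lost, and among related genes IRF1 (0.0555), TNXA (0.0564), IFIT1 (0.0703), NECTIN2 (0.0707), HCP5 (0.0846) and POMP (0.115). Counted by gene, 3 rose at the brightest probe, and 3 rose and 1 fell for the mean of a gene's probes. Neighbour-centred, 1 fell. Leaving out 1 array gave 1 to 3 higher and 1 to 1 lower class I probes, and 621 to 1064 higher and 719 to 1163 lower among all probes, against 1388 and 1528. Such a fit assumes that the lone array varies like the other group. With the replicate block, class I probes that rose stayed at 5 and those that fell at 2, among 1611 and 1793 probes called in all; the numbers do not pair the samples, and SOX7 was the only named result that it moved across the threshold (adjusted p = 0.0104).

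Values that changed sign were all below the threshold. For the mean of probes these were TAP2 (0.058) and HLA-F (0.13), and neighbour-centred PSMB8 probe 2 (0.010), RELA (0.0099) and HLA-F (0.0090). Without 1 array, TAP2 probe 1 ran from −0.15 to 0.0095, TAPBP probe 3 from −0.084 to 0.12, PSMB8 probe 2 from −0.32 to 0.28, PSMB5 from −0.012 to 0.15, RELA from −0.13 to 0.028, PSMB10 from −0.13 to 0.041 and HLA-F from −0.076 to 4.03e-05. Repeated quantile normalization and median centring changed no call. Otherwise the cause of a lost call was not tested, and signal near the median limits the dim probes.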
